A study of Mus musculus with 30 samples.

Results

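Macrophages that receive interleukin-4 (IL-4) enter the alternatively activated state called M2, and the data below describe that response in macrophages that carry TRα1PV. TRα1PV is a mutant form of the thyroid hormone receptor TRα1 that fails to bind T3, the active hormone, and blocks the normal receptor in a dominant-negative way. The comparison used 10 of the 30 libraries, 5 TRα1PV M2 and 5 TRα1PV M0, chosen by their sample titles and read over all genes. TRα1PV M2 cells were given IL-4 at 20 ng/mL, while TRα1PV M0 cells carried the same mutation and were given no cytokine. WT M2 libraries, at the same dose, and WT M0 libraries, 5 each, served to ask where the response differed between genotypes. The remaining libraries, 5 WT M1 and 5 TRα1PV M1, were given lipopolysaccharide and interferon-γ at 20 ng/mL each. They entered the filter on low counts, the scaling and the estimate of the spread, but were not compared. All cells were bone marrow-derived macrophages, grown for 7 days in DMEM/F12 with fetal bovine serum and 15 or 20% medium conditioned by L929 fibroblasts, which secrete the macrophage growth factor M-CSF. The sources used here do not give the zygosity, the age and number of mice, the T3 content of the medium or the time with IL-4. P-values therefore measure the spread between libraries within groups, estimated over all 30 libraries, whichever animals they came from.

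IL-4 binds the receptor chain IL-4Rα, which pairs with the common γ chain or with IL-13Rα1. Janus kinases held by these chains phosphorylate the transcription factor STAT6, which enters the nucleus and binds DNA at an inverted repeat of TTC and GAA. In mouse macrophages the targets include arginase 1, the secreted proteins RELMα and Ym1, and the mannose receptor. Proteins of the SOCS family, induced by the same signal, damp it.

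Reads counted in genes numbered 32275778 to 50238693 in the TRα1PV M2 libraries and 30924917 to 59086252 in the TRα1PV M0 libraries. Of 55414 genes in the files, 15686 had enough reads for a test. Levels are in CPM, the count of a gene scaled to the size of its library, and are compared between groups within a gene, not between genes. Changes are log2 fold changes, TRα1PV M2 over TRα1PV M0, ± a standard error from edgeR's quasi-likelihood fit. A gene is said to have risen or fallen where its adjusted p, by the method of Benjamini and Hochberg over all genes tested, was under 0.05. The first principal component of the 10 libraries held 76.7% of the variance and set the TRα1PV M2 libraries apart from the TRα1PV M0 libraries, and the second held 5.49%. Reads that fell outside genes made up 9.546 to 11.77% in TRα1PV M2 and 12.003 to 14.68% in TRα1PV M0, of the reads in and outside genes. Mitochondrially encoded genes took 2.696 to 4.063% of counted reads in TRα1PV M2 and 1.497 to 2.585% in TRα1PV M0. Both shares differed between the groups without overlap, and a fit with the first share as a covariate is given with the other settings, while the part of the second in the results was not tested. The library WT M0 replicate 2 stood apart with 4.56% mitochondrial reads, where the other 4 WT M0 libraries had 0.921 to 2.07%.

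The cells carried macrophage markers in both states, at a lower summed level with IL-4. The 10 macrophage identity genes came to 19050 to 21300 CPM in TRα1PV M2 and 26780 to 31610 CPM in TRα1PV M0, without overlap. Csf1r, the M-CSF receptor gene, averaged 4058 ± 169.7 CPM in TRα1PV M2 and 4556 ± 522 CPM in TRα1PV M0 (SD, n = 5 each). Its log2 fold change was -0.17 ± 0.10 (adjusted p = 0.152). Cd68 rose by 0.45, and Adgre1, which encodes F4/80, fell by 0.25, a call lost on leaving out any of 6 single libraries. Of the 10 macrophage identity genes, 2 rose and 6 fell, with the largest decreases in Fcgr1 (-2.50), Cd14 (-2.32) and Itgam (-1.72).

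IL-4 changed a large part of the transcriptome in TRα1PV cells. Of the 15686 genes tested, 9046 changed (57.7%), of which 4442 rose (28.3%) and 4604 fell (29.4%). Counts of members that rose or fell in each gene list are to be read beside these shares. At least 2-fold changes were called for 1171 higher genes (7.47%) and 1548 lower genes (9.87%). At least 16-fold changes went mostly upwards, with 128 genes higher (0.816%) and 31 lower (0.198%). All 5 same-numbered pairs of libraries had the sign of the call in 4226 of the 4442 genes that rose and in 4319 of the 4604 that fell. The TRα1PV M2 and TRα1PV M0 libraries did not overlap in 7419 genes (47.3%), of which 3741 were higher (23.8%) and 3678 lower (23.4%). The median change of all genes was -0.02, which the TMM scaling holds near 0.

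The 15 largest increases, taken from genes whose log2 CPM averaged 1 or more over the 10 libraries and had 1 sign in all 5 same-numbered pairs, comprised genes of arginine metabolism, secreted effectors and surface proteins of alternative activation, and other genes. Arg1, which encodes arginase 1, stood at 456, 503, 321, 340.2 and 375 CPM in the TRα1PV M2 libraries, against 0.248, 0.157, 0.148, 0.191 and 0.139 CPM in the TRα1PV M0 libraries. Every TRα1PV M2 library lay far above every TRα1PV M0 library, and the change was 11.11 ± 0.34 (adjusted p = 5.73e-22). Retnla, which encodes RELMα, had 12639, 11759.6, 10222, 10104 and 10535 CPM in TRα1PV M2, against 3.87, 8.23, 5.51, 4.08 and 3.55 CPM in TRα1PV M0. These groups did not overlap either, at a change of 11.10 ± 0.39 (adjusted p = 2.02e-20). Scn3a, a voltage-gated sodium channel gene, had 404, 414, 411, 388 and 409.8 CPM in TRα1PV M2, against 0.225, 0.288, 0.103, 0.223 and 0.0832 CPM in TRα1PV M0. Its TRα1PV M2 libraries were close together, and it changed by 11.10 ± 0.25 (adjusted p = 3.63e-25). Rnase2a, an eosinophil-associated ribonuclease gene, had 420.4, 410.2, 336, 316 and 307 CPM in TRα1PV M2, against 0.135, 0.314, 0.192, 0.143 and 0.194 CPM in TRα1PV M0 (10.86 ± 0.23, adjusted p = 5.41e-26). Its relative Ear2 rose by 8.73 ± 0.34, and reads common to these ribonuclease genes cannot be assigned to one of them. Tmem26, a membrane protein gene, had 467, 460.1, 403, 472 and 402 CPM in TRα1PV M2, against 0.495, 0.446, 0.413, 0.398 and 0.499 CPM in TRα1PV M0 (9.95 ± 0.18, adjusted p = 2.59e-27). Fn1, which encodes the matrix protein fibronectin, had 2929.5, 2319, 1762, 2095 and 2504 CPM in TRα1PV M2, against 8.01, 4.48, 5.005, 3.31 and 4.94 CPM in TRα1PV M0 (8.82 ± 0.31, adjusted p = 2.61e-20). Pdcd1lg2, which encodes the checkpoint ligand PD-L2, had 114, 108, 97.2, 84.4 and 105 CPM in TRα1PV M2, against 0.113, 0.236, 0.428, 0.239 and 0.250 CPM in TRα1PV M0 (8.56 ± 0.16, adjusted p = 7.86e-27). None of these genes had overlapping groups. The other 8 of the 15 were the lipase gene Lipn (7.20), the Ras activator gene Rasgrp1 (7.09), the transcription factor gene Myrf (7.05), the apolipoprotein L gene Apol7c (6.91), the VEGF receptor gene Flt1 (6.70), the sialyltransferase gene St8sia1 (6.64), the cationic amino acid transporter gene Slc7a2 (6.50) and Ear2.

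**Figure D1:**
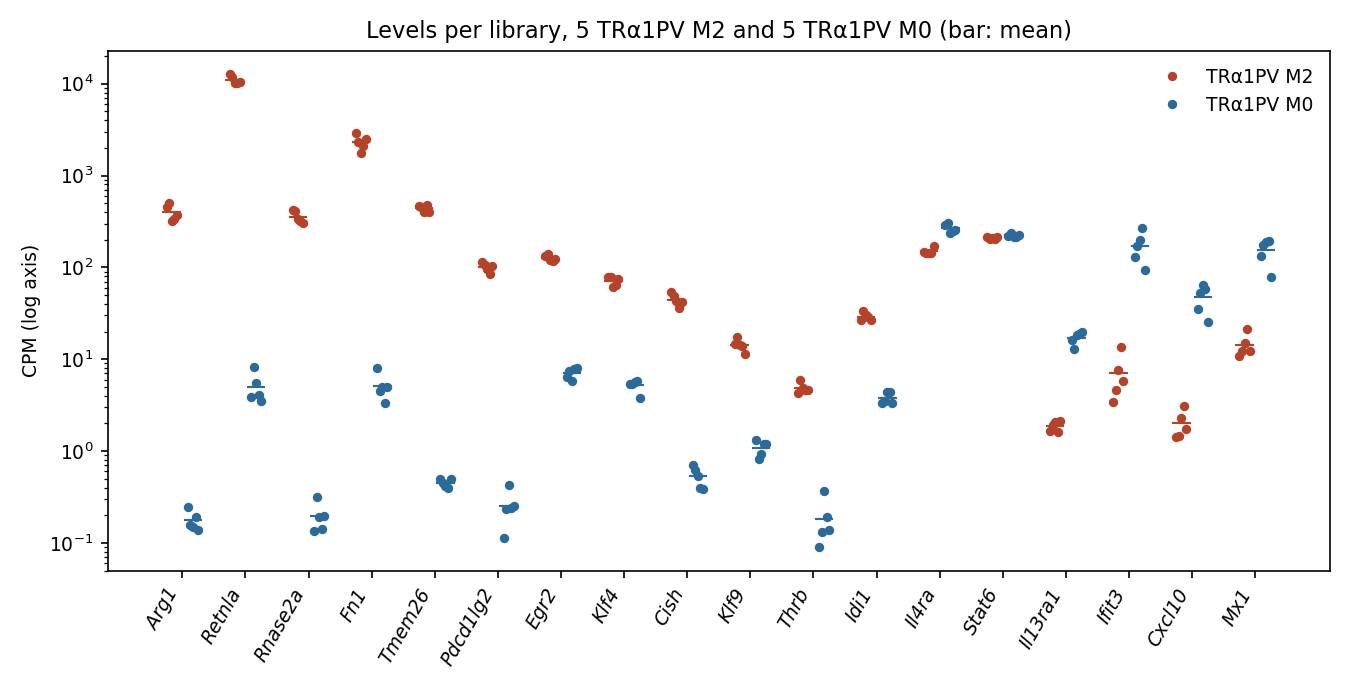
CPM per library on a log axis for 18 genes, with TRα1PV M2 in red to the left of TRα1PV M0 in blue; points are libraries and bars are means of 5. Arg1, Retnla and Rnase2a differed by 10.86 or more on the log2 scale, Stat6 overlapped, and Il13ra1 and the interferon genes Ifit3, Cxcl10 and Mx1 lay lower in TRα1PV M2.

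The promoters of 4 of these genes held the spaced repeat that STAT6 is known to prefer, TTCNNNNGAA, whose reverse complement reads the same. Promoter windows come from RefSeq on GRCm38.p6, a different build from that of the counts, and run from 250 bases before the gene start to 50 bases after. Of the 15 genes with the largest increases by the rule above, 10 had a window in the table. The 4 with a match are shown, because they are among the genes that rose most. They are Retnla (chr16:48842359-48842658, plus strand), with a match 145 bases before the start, and Tmem26 (chr10:68723496-68723795, plus strand), with matches at 227 and 41 bases. Pdcd1lg2 (chr19:29410669-29410968, plus strand) had a match at 82 bases and Apol7c (chr15:77533266-77533565, minus strand) at 72 bases. Capitals mark the match in each sequence, written 5′ to 3′ on the strand of the gene.
Retnla: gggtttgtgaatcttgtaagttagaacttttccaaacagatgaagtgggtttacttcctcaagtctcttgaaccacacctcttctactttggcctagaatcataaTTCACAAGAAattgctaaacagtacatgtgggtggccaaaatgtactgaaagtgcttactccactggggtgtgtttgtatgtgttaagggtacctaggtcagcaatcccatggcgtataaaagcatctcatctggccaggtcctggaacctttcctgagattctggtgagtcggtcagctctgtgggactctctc
Tmem26: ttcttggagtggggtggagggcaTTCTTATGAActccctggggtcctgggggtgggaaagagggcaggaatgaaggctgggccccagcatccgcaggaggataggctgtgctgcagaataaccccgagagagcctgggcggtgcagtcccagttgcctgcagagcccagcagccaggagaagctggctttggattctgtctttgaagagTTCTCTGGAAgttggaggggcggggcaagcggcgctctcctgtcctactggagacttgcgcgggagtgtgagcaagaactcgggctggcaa
Pdcd1lg2: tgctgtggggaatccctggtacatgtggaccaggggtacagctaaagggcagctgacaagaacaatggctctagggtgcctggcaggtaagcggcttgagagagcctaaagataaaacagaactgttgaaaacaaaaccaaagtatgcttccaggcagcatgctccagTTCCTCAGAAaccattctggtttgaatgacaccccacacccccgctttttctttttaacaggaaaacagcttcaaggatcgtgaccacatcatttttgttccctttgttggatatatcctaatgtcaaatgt
Apol7c: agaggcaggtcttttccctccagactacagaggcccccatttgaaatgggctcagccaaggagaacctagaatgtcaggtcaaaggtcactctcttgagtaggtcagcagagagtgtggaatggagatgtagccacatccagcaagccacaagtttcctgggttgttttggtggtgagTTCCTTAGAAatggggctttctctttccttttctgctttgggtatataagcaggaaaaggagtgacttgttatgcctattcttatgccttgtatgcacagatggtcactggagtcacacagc
Among genes at least 16-fold higher in TRα1PV M2, 19 of 107 windows held this repeat (17.8%), a gene with several starts having several windows. The share was 77 of 1004 windows for genes at least 2-fold higher (7.67%), 71 of 1309 for genes at least 2-fold lower (5.42%), 2 of 30 for genes at least 16-fold lower (6.67%) and 750 of 13245 for all genes tested (5.66%). It was also high, at 6 of 31 windows (19.4%), for the type I interferon-stimulated genes described below, most of which fell. The repeat can share its GAA with the interferon element searched further on. A match is a description of the letters and not of a bound site.

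At the receptor, genes of the α chain and of IL-13Rα1 were lower with IL-4 and that of the γ chain was higher. Il4ra, which encodes IL-4Rα, had 146, 142, 144, 145 and 169 CPM in TRα1PV M2, against 292, 306, 234, 251 and 253 CPM in TRα1PV M0. The groups did not overlap, and the change was -0.84 ± 0.13 (adjusted p = 1.87e-06). Il13ra1, the partner chain of the receptor that also binds IL-13, had 1.64, 1.94, 2.07, 1.61 and 2.15 CPM in TRα1PV M2, against 16.1, 13.02, 18.3, 18.6 and 19.9 CPM in TRα1PV M0 (-3.20 ± 0.18, adjusted p = 1.53e-15). Il2rg, the common γ chain gene, rose by 0.79 ± 0.10 (adjusted p = 2.46e-08). Il13ra2, the decoy receptor gene, had no read in either group. Of the kinase genes, Jak2 rose by 1.48 ± 0.09 and Jak3, the partner of the γ chain, changed by -1.02 ± 0.12 (adjusted p = 1.95e-14 and 1.39e-08). Jak1 (-0.03) and Tyk2 (-0.10) did not pass the test. Stat6 itself had 213, 205, 209, 206 and 216 CPM in TRα1PV M2, against 222, 238, 215, 215 and 224 CPM in TRα1PV M0. Those values overlapped, at a change of -0.08 ± 0.05 (adjusted p = 0.178). Of the 7 tested genes of this list, which holds the receptor chains and their kinases, 2 rose (28.6%) and 3 fell (42.9%). Of all genes tested, 28.3% rose and 29.4% fell.

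The genes of signal brakes rose the most among the 15 tested carriers and brakes. Of these 15, 8 rose (53.3%) and 4 fell (26.7%), where 28.3% of all genes tested rose and 29.4% fell. Cish, a SOCS family member, had 54.0, 48.3, 42.7, 36.3 and 42.1 CPM in TRα1PV M2, against 0.698, 0.629, 0.531, 0.398 and 0.388 CPM in TRα1PV M0 (6.404 ± 0.18, adjusted p = 3.7e-23). Socs1, which binds and inhibits Janus kinases, had 24.9, 26.3, 20.5, 20.9 and 28.1 CPM in TRα1PV M2, against 0.855, 1.02, 0.620, 0.797 and 0.721 CPM in TRα1PV M0 (4.93 ± 0.19, adjusted p = 1.23e-19). Neither gene had overlapping groups. Socs2 rose by 3.24 and the adaptor gene Dok2 by 2.10, while Socs3 fell by 1.30. Irs2, the adaptor that links the IL-4 receptor to PI3 kinase, rose by 1.29 and the adaptor Grb2 by 0.39, while Pik3cd (-0.51) and the lipid phosphatase gene Inpp5d (-0.67) fell. The phosphatase genes Ptpn1 (0.30) and Ptpn6 (-0.17) were called in opposite directions, both at small changes that lost their call under some settings. Mtor, at 0.19 ± 0.08 (adjusted p = 0.0428), lost its call with the replicate number as a block (adjusted p = 0.0512), and Pik3r1 (-0.07) and Akt1 (0.14) did not pass, though Akt1 did with the 10 TRα1PV libraries fitted alone and that block (adjusted p = 0.0122).

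Of 16 transcription factor genes tied to alternative activation, 12 rose, 3 fell and 1 did not pass, with a median of 2.01. Egr2, an early growth response factor, had 131, 141, 122, 116 and 122 CPM in TRα1PV M2, against 6.41, 7.42, 5.83, 7.74 and 8.12 CPM in TRα1PV M0 (4.16 ± 0.09, adjusted p = 3.63e-25). Klf4, a Krüppel-like factor that cooperates with STAT6, had 78.4, 79.6, 61.2, 64.5 and 75.2 CPM in TRα1PV M2, against 5.38, 5.37, 5.596, 5.85 and 3.74 CPM in TRα1PV M0 (3.78 ± 0.10, adjusted p = 2.97e-23). Irf4, which is needed for much of the M2 program in mice, had 115, 109, 94.9, 89.2 and 93.1 CPM in TRα1PV M2, against 14.4, 13.3, 16.3, 8.81 and 11.3 CPM in TRα1PV M0 (2.97 ± 0.13, adjusted p = 2.83e-18). All 3 genes were higher in every TRα1PV M2 library than in any TRα1PV M0 library. Ppargc1b, a coactivator of mitochondrial and fatty acid genes, rose by 4.08 ± 0.12, the nuclear receptor gene Pparg by 1.69 ± 0.09 and Myc by 2.44 ± 0.15. Bhlhe40 (3.59), Batf3 (2.52), Nfil3 (2.32), Kdm6b (0.65) and Mitf (0.46) also rose. Those that fell were Maf (-0.99), Bhlhe41 (-0.84) and Cebpb (-0.27), the last of which lost its call when any of 4 single libraries was left out. Rxra, the partner of PPARγ, changed by 0.08, without a call.

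All 22 genes of the secreted effector list, which also counts the arginine enzyme gene Arg1, were called, 17 higher and 5 lower. Their median was 4.90, or 4.74 with the gene that had no read in TRα1PV M0 set at its lower bound. Chil3, which encodes Ym1, had 2595, 1954, 1560.3, 1839 and 2057 CPM in TRα1PV M2, against 76.1, 64.8, 48.8, 33.3 and 34.7 CPM in TRα1PV M0 (5.28 ± 0.30, adjusted p = 1.2e-15). Its relative Chil4 had 775 reads over the TRα1PV M2 group and 1 over the TRα1PV M0 group, a ratio of 969 after scaling for depth (95% exact interval 173 to 38300, for counting error only). The chemokine gene Ccl24, whose product attracts eosinophils, had 181, 181, 148, 118 and 121 CPM in TRα1PV M2, against 2.50, 2.57, 2.35, 2.21 and 3.02 CPM in TRα1PV M0 (5.90 ± 0.21, adjusted p = 3e-20). Ccl17, a ligand of CCR4, had 74 reads in TRα1PV M2 and none in TRα1PV M0, which makes it at least 30.8-fold higher against a floor of 3 reads over the group. Its partner ligand Ccl22 rose by 5.34. Monocyte-attracting chemokine genes also rose, with Ccl8 at 5.76, Ccl7 at 3.47 and Ccl2 at 2.21. Il4i1, an amino acid oxidase gene named for its induction by IL-4, rose by 4.53, Igf1 by 1.75, the elastase gene Mmp12 by 1.09 and Tgfb1 by 0.37. Members that fell were the coagulation factor gene F13a1 (-2.92), Mmp9 (-1.68), Pf4 (-1.51), Il1rn (-0.39) and the transglutaminase gene Tgm2 (-0.37). Without TRα1PV M0 replicate 4, Il1rn stood at -0.24 and lost its call (adjusted p = 0.131), as it did with the outside-gene share of reads as a covariate (-0.163, adjusted p = 0.409). F13a1 and Tgm2 are markers of alternative activation in human cells, and F13a1 stood at 137 ± 9.35 CPM in TRα1PV M2 and 1039 ± 68.9 CPM in TRα1PV M0.

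Among 18 surface receptor genes of alternative activation, 13 rose, 2 fell and 3 did not pass, with a median of 0.80. Mrc1, the mannose receptor gene, had 2733, 2809, 2946, 2807 and 3029 CPM in TRα1PV M2, against 895, 884, 1023, 908 and 1043 CPM in TRα1PV M0. It was higher in all TRα1PV M2 libraries at a change of 1.59 ± 0.14 (adjusted p = 3.29e-11). The lectin gene Mgl2 had 475, 434, 415, 318 and 337 CPM in TRα1PV M2, against 5.87, 5.24, 6.08, 4.13 and 5.21 CPM in TRα1PV M0 (6.22 ± 0.15, adjusted p = 1.93e-24). Cdh1, which encodes E-cadherin, rose by 7.497 with few reads in TRα1PV M0, Slamf1 by 3.76, the β-glucan receptor gene Clec7a by 1.95 and Cd274, which encodes PD-L1, by 1.38. Smaller increases were in Cd200r1 (0.89), Clec10a (0.72), Cd36 (0.56), Msr1 (0.50) and Folr2 (0.43). That of Folr2 lost its call without TRα1PV M0 replicate 2 or 3 (adjusted p = 0.0611 and 0.0694) and stood at 0.028 with the outside-gene share of reads as a covariate (adjusted p = 0.9). The scavenger receptor genes Stab1 (-2.09) and Marco (-1.49) fell, and Cd163 (-0.33), Il1r2 (-0.11) and Trem2 (-0.02) did not pass, though Cd163 did in the same fit of the 10 TRα1PV libraries (adjusted p = 0.00175).

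Arginine and polyamine genes moved mostly upwards: 13 of 18 rose and 2 fell, with a median of 0.66. Beside Arg1, the arginine importer gene Slc7a2 had 483, 581, 474, 489.8 and 450.4 CPM in TRα1PV M2, against 4.46, 5.35, 5.79, 6.48 and 5.24 CPM in TRα1PV M0, without overlap. Oat, which turns the ornithine that arginase makes towards proline, rose by 1.12. The enzyme genes of polyamine synthesis Odc1, Srm and Amd1 rose by 0.91, 1.32 and 1.04. Smox, which breaks spermine down, fell by 1.98 and the creatine kinase gene Ckb by 0.93. Nos2, which encodes the enzyme that competes with arginase for arginine, changed by 0.36 without a call.

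**Figure D2:**
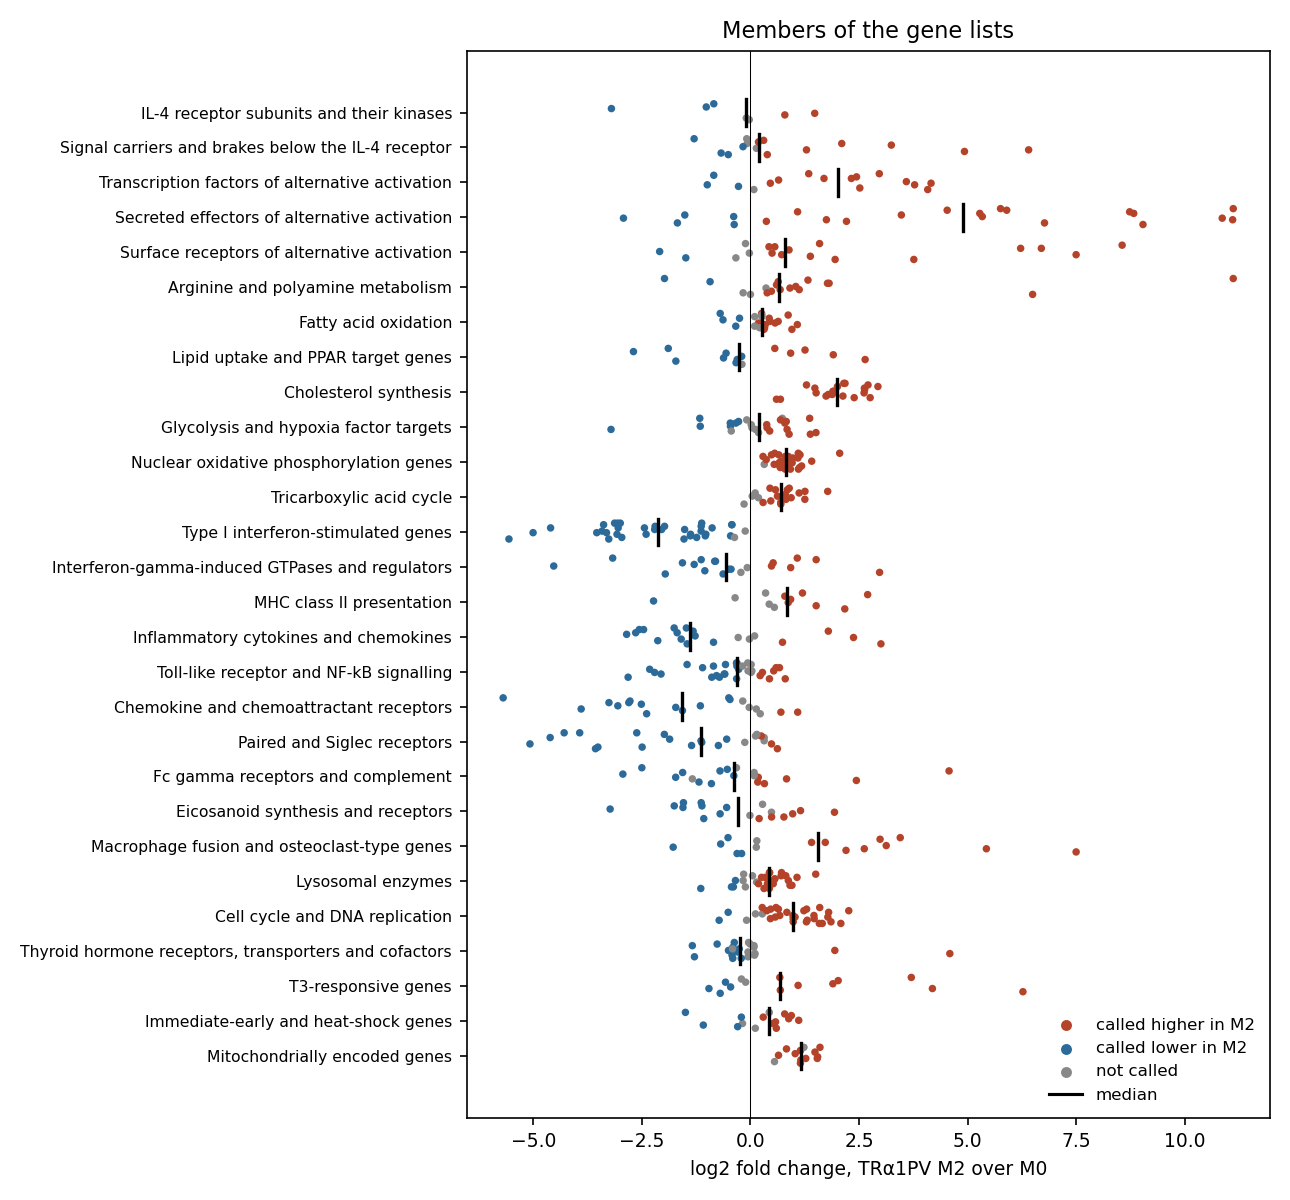
Log2 fold change, TRα1PV M2 over TRα1PV M0, of every tested member of 28 gene lists, coloured by call, with the median of each list as a black bar. All 21 cholesterol synthesis genes lie right of 0, and all 36 type I interferon-stimulated genes lie left of 0.

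All genes of cholesterol synthesis rose: 21 of 21, counting the regulators Srebf2 and Insig1, 19 of them at least 2-fold, with a median of 2.003. The TRα1PV M2 and TRα1PV M0 libraries did not overlap in any of the 21, where 23.8% of all genes tested were higher without overlap. Sqle, squalene epoxidase, had 94.9, 105, 101, 95.8 and 98.5 CPM in TRα1PV M2, against 12.96, 15.8, 16.3, 16.2 and 14.5 CPM in TRα1PV M0 (2.71 ± 0.13, adjusted p = 8.37e-17). Its groups were well separated. Nsdhl, of the late sterol steps, rose by 1.79 ± 0.08. The change was greatest in Idi1, an isomerase of the isoprenoid steps (2.94 ± 0.19), and smallest in Pmvk, a kinase of the mevalonate steps (0.60 ± 0.08). The sterol-responsive factor gene Srebf2 rose by 1.29 and Insig1, whose product holds the factor back, by 1.74. In WT, 21 of 21 were also called higher, and the difference between genotypes was called for none of them.

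**Figure D3:**
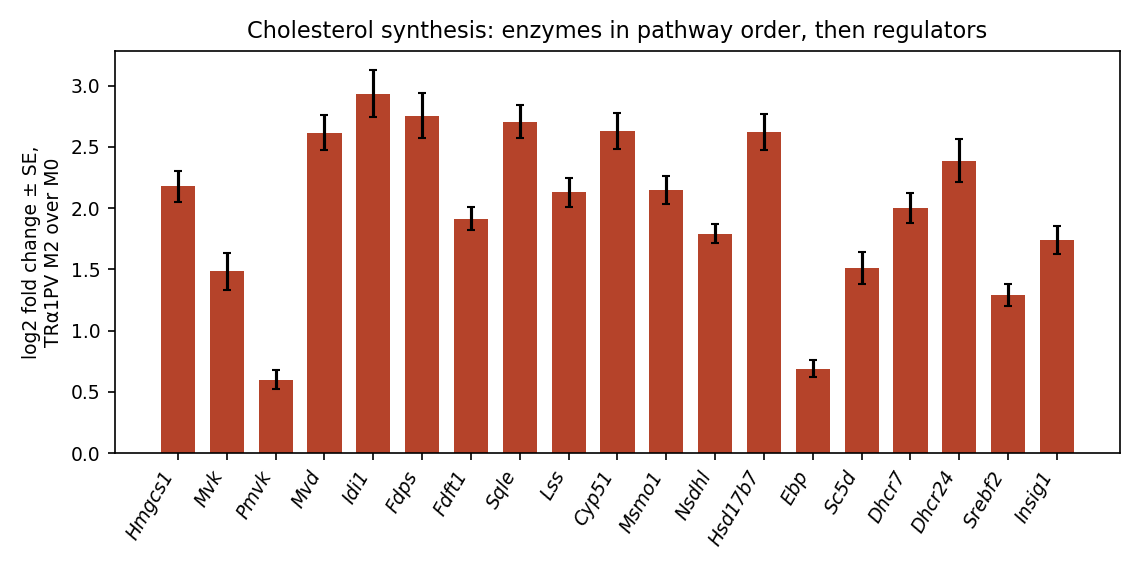
Log2 fold change ± standard error, TRα1PV M2 over TRα1PV M0, for 19 genes of the cholesterol list, enzymes in pathway order and then Srebf2 and Insig1. Values run up to 2.94 (Idi1), and the lowest is 0.60 (Pmvk).

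Other lipid genes split. Abcg1, a cholesterol exporter, rose by 1.91 and the liver X receptor gene Nr1h3 by 1.26, while the exporter gene Abca1 changed by -1.72 and the apolipoprotein gene Apoe by -1.89. The fatty acid binding protein genes Fabp4 (2.64) and Fabp5 (0.93) rose, and Angptl4, an inhibitor of lipoprotein lipase, fell by 2.69. In total 5 of 14 tested genes of lipid uptake and PPAR targets rose and 8 fell. Of 21 fatty acid oxidation genes 12 rose and 4 fell, with a median of 0.26. Etfa (1.08) and Etfdh (0.95), which pass electrons from β-oxidation to the respiratory chain, and Hadhb (0.87) of the trifunctional protein were among those that rose. Cpt1a, the carnitine transferase of fatty acid entry, fell by 0.70, Acaa1a by 0.63 and Acsl1 by 0.34.

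Genes of mitochondrial respiration rose together. Of 32 nuclear genes of oxidative phosphorylation 31 rose and none fell, with a median of 0.82, and only Ndufa2 did not pass (0.32), though it did with the replicate number as a block (adjusted p = 0.0456). Cycs, which encodes cytochrome c, had 53.7, 55.1, 57.8, 46.4 and 48.3 CPM in TRα1PV M2, against 10.2, 12.4, 13.3, 15.4 and 11.2 CPM in TRα1PV M0 (2.05 ± 0.09, adjusted p = 3.46e-18). The groups were apart, and the ATP synthase α subunit gene Atp5a1 rose by 1.13 ± 0.06 and the complex I gene Ndufs1 by 0.86 ± 0.05. Of 20 genes of the tricarboxylic acid cycle 16 rose and none fell, among them Idh3a (1.78) and Aco1 (1.25). Of the 13 mitochondrially encoded genes 11 rose, with a median of 1.16, which goes with the higher share of such reads given above. Glycolysis genes were mixed, with 11 of 25 higher (44.0%) and 7 lower (28.0%), where 28.3% of all genes tested rose and 29.4% fell. Pfkp (1.51), Hk3 (1.38) and the glucose transporter gene Slc2a1 (1.36) rose, and the hypoxia factor targets Ndrg1 (-1.17) and Vegfa (-1.15) and the kinase gene Pdk1 (-0.46) fell.

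Cell cycle genes were higher with IL-4. Of 32 genes 27 rose and 2 fell, with a median of 0.98. Mki67, a marker of cycling cells, had 136, 139, 119.5, 120.1 and 115 CPM in TRα1PV M2, against 46.8, 38.5, 42.9, 40.7 and 39.2 CPM in TRα1PV M0 (1.596 ± 0.09, adjusted p = 6.92e-16). Its groups did not overlap. The S-phase cyclin gene Ccne1 rose by 2.26 and the replication clamp gene Pcna by 0.98, while Ccnd3 (-0.72) and Cdk6 (-0.51) fell. In bulk RNA, more cells in cycle and more of these transcripts per cell cannot be told apart.

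Among genes that met the same rule, the largest decreases were led by interferon-stimulated genes. Cx3cr1 and Pilrb2, described below, fell by more than most of these 15, but their mean level was too low for the rule. Of the 15, 6 encode members of interferon-induced families: Ifit3b (-5.56), Ifit1bl1 (-5.003), Ifit3 (-4.60), Cxcl10 (-4.53), Rsad2 (-3.54) and Mx1 (-3.42). The DNA-sensing family gene Ifi213 (-4.23) and Trim30b (-4.07) belong to families with interferon-induced members. The others were the lysophosphatidylserine receptor gene Gpr34 (-4.01), the adaptor gene Bank1 (-3.90), Ms4a4c (-3.80), the apolipoprotein gene Apoc1 (-3.67), the IGF-binding protein gene Igfbp4 (-3.66), the octamer factor gene Pou2f2 (-3.57) and Mtus1 (-3.49).

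Type I interferon-stimulated genes fell almost throughout: 34 of 36 fell, 30 of them at least 2-fold, none rose, and the median was -2.12. Ifit3, an RNA-binding antiviral gene, had 3.41, 4.63, 7.58, 13.7 and 5.76 CPM in TRα1PV M2, against 129, 171, 201, 267 and 94.7 CPM in TRα1PV M0 (-4.60 ± 0.29, adjusted p = 2.77e-14). Cxcl10, which encodes a chemokine for T cells and was listed with interferon-γ genes, had 1.42, 1.46, 2.28, 3.13 and 1.73 CPM in TRα1PV M2, against 35.0, 53.1, 63.8, 58.2 and 25.1 CPM in TRα1PV M0 (-4.53 ± 0.26, adjusted p = 3.09e-15). Mx1, an antiviral GTPase gene, had 10.9, 12.4, 15.2, 21.1 and 12.2 CPM in TRα1PV M2, against 133, 174, 189, 193 and 79.4 CPM in TRα1PV M0 (-3.42 ± 0.19, adjusted p = 1.69e-15). In none of these genes did the groups overlap, and replicate 5 had the lowest level of each among the TRα1PV M0 libraries. Rsad2, which encodes viperin, had 12.5, 17.1, 27.1, 36.5 and 18.7 CPM in TRα1PV M2, against 186, 266, 339.9, 347 and 163 CPM in TRα1PV M0 (-3.54 ± 0.24, adjusted p = 8.7e-14). Oas2, a sensor of double-stranded RNA, fell by 3.06 and Xaf1 by 2.04. The transcription factor gene Stat2 fell less, at -0.42. The groups did not overlap in 32 of the 36 genes, where 23.4% of all genes tested were lower without overlap. Bst2 (-0.37) and Zbp1 (-0.12) did not pass. With the 10 TRα1PV libraries fitted alone and the replicate number as a block, Bst2 was called lower (adjusted p = 0.0118). Ifit, Oas and Mx genes have close relatives, so reads common to such copies are uncertain in their place.

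Factors of the IRF family are known to bind the interferon response element, searched here as GAAANNGAAA on both strands. Of the 15 genes with the largest decreases by the rule above, 11 had a promoter window and 6 of these held the element. They were Ifit3b, Ifit1bl1, Ifit3, Cxcl10, Ifi213 and Rsad2, of which 4 are shown as examples, chosen after the matches were seen. Ifit3 (chr19:34583279-34583578, plus strand) had matches 156 and 122 bases before the start, and Ifit3b (chr19:34607707-34608006, plus strand) had them at 188 and 154 bases. Rsad2 (chr12:26456403-26456702, minus strand) had a match at 120 bases and Cxcl10 (chr5:92348840-92349139, minus strand) at 213 bases. Capitals mark the matches, which on the other strand read TTTCNNTTTC.
Ifit3: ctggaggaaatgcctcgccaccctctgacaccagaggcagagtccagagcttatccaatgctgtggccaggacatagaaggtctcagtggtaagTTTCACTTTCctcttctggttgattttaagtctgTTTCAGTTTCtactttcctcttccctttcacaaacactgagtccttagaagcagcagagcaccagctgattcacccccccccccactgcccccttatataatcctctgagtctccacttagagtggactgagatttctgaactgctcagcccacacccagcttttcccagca
Ifit3b: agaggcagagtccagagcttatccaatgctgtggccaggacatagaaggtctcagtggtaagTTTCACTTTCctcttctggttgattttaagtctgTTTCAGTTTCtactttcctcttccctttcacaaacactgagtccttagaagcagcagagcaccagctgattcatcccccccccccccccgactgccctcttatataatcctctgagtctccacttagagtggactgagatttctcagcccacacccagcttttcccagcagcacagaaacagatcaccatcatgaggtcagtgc
Rsad2: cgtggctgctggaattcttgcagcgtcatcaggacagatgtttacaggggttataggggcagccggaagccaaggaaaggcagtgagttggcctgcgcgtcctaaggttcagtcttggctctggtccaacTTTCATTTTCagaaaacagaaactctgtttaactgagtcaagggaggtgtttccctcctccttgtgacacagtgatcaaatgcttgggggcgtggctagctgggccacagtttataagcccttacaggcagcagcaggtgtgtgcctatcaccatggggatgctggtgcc
Cxcl10: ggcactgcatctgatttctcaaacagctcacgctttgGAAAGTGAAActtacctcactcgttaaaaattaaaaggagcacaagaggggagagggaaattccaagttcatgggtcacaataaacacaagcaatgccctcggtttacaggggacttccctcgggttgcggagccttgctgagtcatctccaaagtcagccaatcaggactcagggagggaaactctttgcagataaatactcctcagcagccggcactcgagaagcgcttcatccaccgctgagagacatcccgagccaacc
Among windows of the type I interferon-stimulated genes 16 of 31 held the element (51.6%). The share was 8 of 30 windows for genes at least 16-fold lower in TRα1PV M2 (26.7%), 97 of 1309 for genes at least 2-fold lower (7.41%), 28 of 1004 for genes at least 2-fold higher (2.79%) and 442 of 13245 for all genes tested (3.34%).

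Interferon genes were among those whose response differed between TRα1PV and WT. Over all genes, the response differed for 339 genes (2.16%), with the difference, TRα1PV minus WT, above 0 for 110 (0.701%) and below 0 for 229 (1.46%). Of the 229, 182 had fallen with IL-4 in TRα1PV, 30 had risen and 17 were not called there. Among the 36 type I interferon-stimulated genes the difference was below 0 for 27 and above 0 for none, and the count lay between 23 and 32 over the alternative settings. In WT, where 3949 genes rose (25.2%) and 4264 fell (27.2%) over all, 24 of the 36 fell and 4 rose, at a median of -0.74.

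Mx1 averaged 14.4 ± 4.10 CPM in TRα1PV M2 and 154 ± 47.9 CPM in TRα1PV M0, and 13.1 ± 0.329 CPM in WT M2 and 38.4 ± 8.64 CPM in WT M0 (SD, n = 5 each). The levels with IL-4 lay side by side in the genotypes, while the level without it was higher in TRα1PV. The change was -3.42 ± 0.19 in TRα1PV and -1.56 ± 0.19 in WT, a difference of -1.86 ± 0.26 (adjusted p = 0.000131). Ifit3 averaged 7.01 and 172 CPM in TRα1PV M2 and M0, and 5.36 and 42.9 CPM in WT M2 and M0, with a difference of -1.59 ± 0.38 (adjusted p = 0.0193, or 0.0595 with only the libraries of the compared groups). Xaf1, a proapoptotic gene, had 14.4 and 59.5 CPM in TRα1PV M2 and M0, and 12.6 and 22.1 CPM in WT M2 and M0 (difference -1.23 ± 0.18, adjusted p = 0.00019). In these genes the group that stood out was TRα1PV M0. TRα1PV M0 was not tested against WT M0.

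Genes induced by interferon-γ were split in TRα1PV, with 6 of 20 higher and 12 lower, against 9 higher and 3 lower in WT. The difference was below 0 for 13 of the 20 and above 0 for none. The resistance GTPase gene Irgm1 had a change of -1.13 ± 0.11 in TRα1PV and changed by -0.01 ± 0.11 in WT, a difference of -1.12 ± 0.16 (adjusted p = 0.000131). Its levels were 58.2, 64.7, 63.3, 83.5 and 67.5 CPM in TRα1PV M2, against 133, 159, 161, 181 and 106 CPM in TRα1PV M0. Ifi47, of the same GTPase family, was called lower in TRα1PV (-0.50 ± 0.12) and higher in WT (0.90 ± 0.12), and had the smallest p of any difference (-1.40 ± 0.17, adjusted p = 4.86e-05). The guanylate-binding protein gene Gbp5 also went in opposite directions, at -0.63 ± 0.14 in TRα1PV and 0.54 ± 0.14 in WT, and Gbp2 rose in both, by 1.08 in TRα1PV and 2.17 in WT. Gbp8 (2.97), Irf1 (0.93) and the class II regulator gene Ciita (1.51) rose in TRα1PV, and Iigp1 (-3.17) and Irf8 (-0.82) fell. These GTPases form families with near-identical copies, such as Tgtp1 and Tgtp2, whose reads the counts do not resolve.

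**Figure D4:**
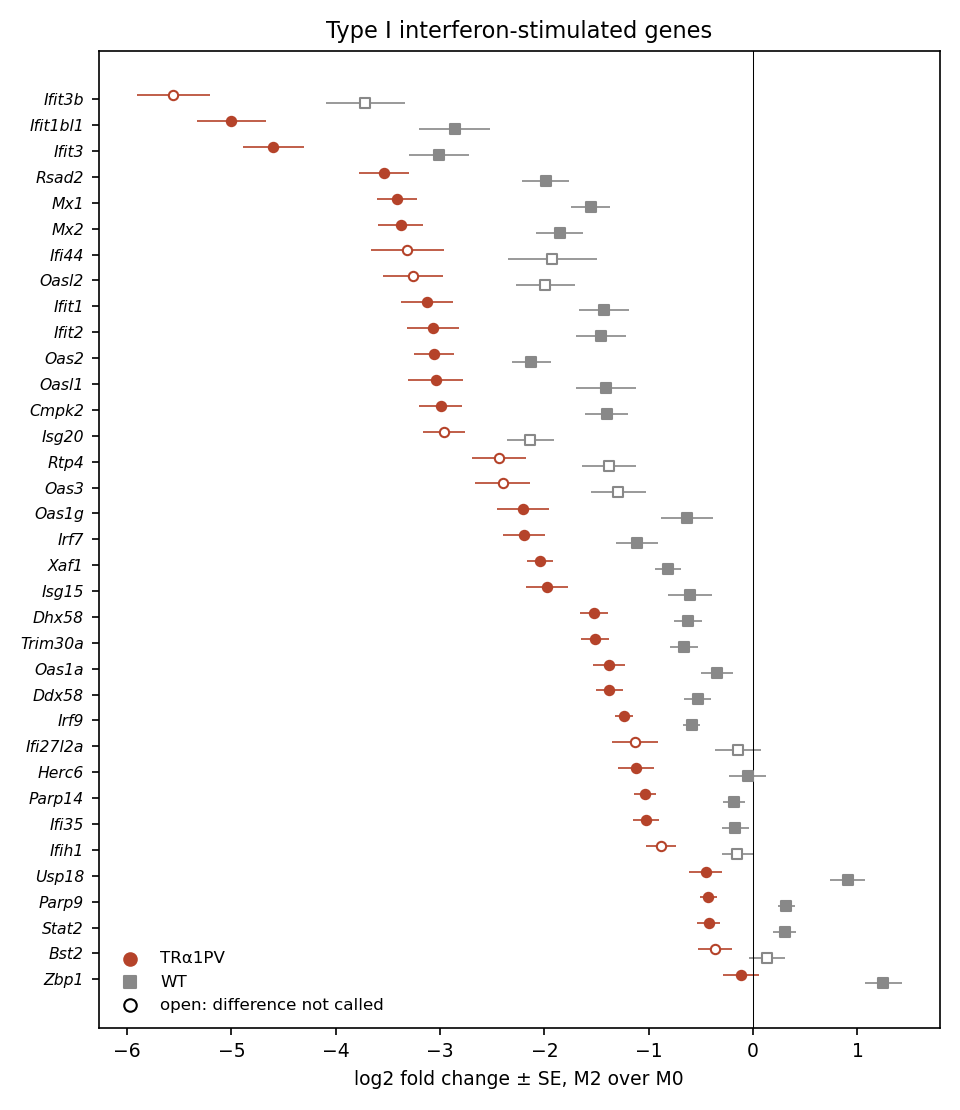
Log2 fold change, M2 over M0, of 35 type I interferon-stimulated genes in TRα1PV (red circles) and in WT (grey squares), one row per gene; open symbols mark genes whose difference between genotypes did not pass the test. TRα1PV values lie left of WT values for every gene shown.

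Of 20 tested inflammatory cytokine and chemokine genes 13 fell and 4 rose, with a median of -1.39. Il18, an inflammasome cytokine gene, had 6.74, 6.76, 6.63, 6.29 and 6.58 CPM in TRα1PV M2, against 15.96, 13.9, 18.4, 17.9 and 16.1 CPM in TRα1PV M0 (-1.32 ± 0.12, adjusted p = 5.66e-11). The death receptor ligand gene Tnfsf10 had 2.10, 2.22, 3.05, 3.49 and 2.37 CPM in TRα1PV M2, against 12.1, 15.5, 20.6, 21.3 and 8.65 CPM in TRα1PV M0 (-2.56 ± 0.21, adjusted p = 1.17e-11). The groups of both genes were apart. Il1b fell by 2.64, Tnf by 1.47, the neutrophil chemokine gene Cxcl2 by 2.13 and Cxcl16 by 1.76. Against this direction, the chemokine genes Ccl6 (2.37), Ccl9 (1.79) and Ccl12 (0.74, a call lost by limma-voom at an adjusted p of 0.054) rose, as did Il6 (3.004) at a low level of 1.28 ± 0.291 CPM in TRα1PV M2 and 0.142 ± 0.0912 CPM in TRα1PV M0.

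Sensors and carriers ahead of these genes fell more often than they rose. Of 31 genes of Toll-like receptors and NF-κB signalling 17 fell and 7 rose. Tlr2, a receptor of bacterial lipoproteins, fell by 2.06, the flagellin receptor gene Tlr5 by 2.21 and the lipopolysaccharide coreceptor gene Cd14 by 2.32. Nfkbiz, a nuclear regulator of NF-κB targets, had 2.65, 3.82, 3.02, 3.28 and 3.34 CPM in TRα1PV M2, against 22.3, 25.0, 23.9, 21.3 and 21.0 CPM in TRα1PV M0 (-2.82 ± 0.13, adjusted p = 2.42e-17), without overlap. The adaptor genes Ticam1 (0.59) and Ticam2 (0.44) and the subunit gene Rel (0.67) rose, and Tlr4, the lipopolysaccharide receptor gene, rose by 0.80.

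Receptors for chemoattractants fell in 13 of 19 genes and rose in 2, with a median of -1.56. Cx3cr1, the fractalkine receptor gene, had 0.0273, 0.112, 0.148, 0.0758 and 0.198 CPM in TRα1PV M2, against 6.39, 6.60, 6.56, 3.36 and 6.65 CPM in TRα1PV M0 (-5.69 ± 0.32, adjusted p = 1.7e-15). Ccr2, the monocyte chemokine receptor gene, had 23.7, 20.2, 14.6, 15.2 and 8.65 CPM in TRα1PV M2, against 149, 103, 129.9, 126 and 64.5 CPM in TRα1PV M0 (-2.80 ± 0.28, adjusted p = 4.66e-10). Both were lower in every TRα1PV M2 library. C5ar1, the receptor of complement C5a, fell by 2.51 and S1pr1, a receptor of sphingosine phosphate, by 3.05, while Cxcr2 (1.09) and P2ry14 (0.70) rose. Ccr1 (0.13) did not pass in TRα1PV, where WT showed 1.37, and the difference passed the test (-1.23). With the 10 TRα1PV libraries fitted alone and the replicate number as a block, 4 of these receptors rose, Ccr1 among them (adjusted p = 0.0246).

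Paired receptors and sialic acid-binding lectins fell in 15 of 23 genes and rose in 3. The activating paired receptor gene Pilrb2 had 0.327, 0.309, 0.266, 0.227 and 0.321 CPM in TRα1PV M2, against 7.92, 7.08, 5.82, 6.93 and 7.79 CPM in TRα1PV M0 (-4.61 ± 0.25, adjusted p = 6.68e-16), and Pirb, an inhibitory immunoglobulin-like receptor gene, fell by 1.14. Pilrb1 and Pilrb2 are near copies, so their separate values are uncertain. Siglech (-3.51) and Fcrl1 (-4.29) also fell. The 3 that rose were Cd300ld (0.62), Cd300lb (0.48) and Lilr4b (0.25), the last of which lost its call under several settings.

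In antigen presentation by MHC class II, 7 of 12 genes rose and 1 fell. Cd74, the invariant chain gene, had 609, 485, 444, 384 and 376 CPM in TRα1PV M2, against 80.4, 91.4, 89.4, 36.4 and 56.5 CPM in TRα1PV M0 (2.70 ± 0.27, adjusted p = 7.11e-10). H2-DMa, which loads peptides, had 130.3, 105, 102, 102 and 92.8 CPM in TRα1PV M2, against 27.3, 25.6, 24.5, 20.3 and 20.4 CPM in TRα1PV M0 (2.17 ± 0.11, adjusted p = 2.57e-16). Neither gene had overlapping groups. The classical chain genes H2-Aa (0.35), H2-Ab1 (0.43) and H2-Eb1 (-0.35) did not pass. With the 10 TRα1PV libraries fitted alone and the replicate number as a block, H2-Aa (0.47, adjusted p = 0.0177) and H2-Ab1 (0.51, adjusted p = 0.00181) were called higher, and no member of the list lower. In the fit of all libraries, H2-Ob, an inhibitor of loading with few reads, fell by 2.23.

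Genes of macrophage fusion and of osteoclast type rose in 9 of 16 (56.2%) and fell in 5 (31.2%), with a median of 1.56. Over all genes tested the shares were 28.3% and 29.4%. Atp6v0d2, a proton pump subunit needed for fusion, had 992, 1125, 1124, 1217 and 1021 CPM in TRα1PV M2, against 96.0, 84.5, 124, 179 and 143 CPM in TRα1PV M0 (3.13 ± 0.19, adjusted p = 7.87e-15). The fusion protein gene Dcstamp rose by 3.45 and its relative Ocstamp by 5.43. Acp5, which encodes tartrate-resistant acid phosphatase, rose by 2.98, while the matrix protease gene Mmp14 (-1.78) and the RANK gene Tnfrsf11a (-0.68) fell. Of 30 lysosomal genes 21 rose and 4 fell, with Ctsz (1.503) and Lamp1 (0.72) among the higher and Scarb2 (-1.14) and Idua (-0.44) among the lower. With the outside-gene share of reads as a covariate, 8 lysosomal genes fell.

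Of 19 Fc receptor and complement genes 6 rose (31.6%) and 9 fell (47.4%), where 28.3% of all genes tested rose and 29.4% fell. Itgax, which encodes CD11c, had 245, 196, 190.4, 191 and 194 CPM in TRα1PV M2, against 11.8, 5.98, 7.81, 6.79 and 10.5 CPM in TRα1PV M0 (4.57 ± 0.22, adjusted p = 4.87e-17), and C3 rose by 2.44. Itgam, which encodes CD11b, fell by 1.72, the activating receptor gene Fcgr1 by 2.50 and C4b by 2.94, while the inhibitory receptor gene Fcgr2b rose by 0.83. Among 18 eicosanoid genes 6 rose and 9 fell. Pla2g4a, which frees arachidonic acid, rose by 1.93 and the cyclooxygenase gene Ptgs1 by 0.77, and Hpgd, which inactivates prostaglandins, had 3.66, 3.11, 3.996, 4.23 and 4.35 CPM in TRα1PV M2, against 31.5, 31.9, 40.5, 40.5 and 37.6 CPM in TRα1PV M0 (-3.23 ± 0.18, adjusted p = 7.88e-16). Alox15, a lipoxygenase gene of alternative activation, had 17 and 7 reads over the TRα1PV M2 and M0 groups, too few to test.

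The receptor genes of thyroid hormone responded to IL-4 in opposite directions. Thrb, which encodes TRβ, had 4.26, 5.95, 4.83, 4.64 and 4.65 CPM in TRα1PV M2, against 0.0900, 0.131, 0.369, 0.191 and 0.139 CPM in TRα1PV M0. Every TRα1PV M2 library was above every TRα1PV M0 library (4.59 ± 0.25, adjusted p = 8.22e-16). Thra, which encodes TRα, had 46.3, 43.3, 43.6, 41.7 and 42.1 CPM in TRα1PV M2, against 58.2, 61.1, 56.9, 50.8 and 53.5 CPM in TRα1PV M0 and fell without overlap (-0.37 ± 0.09, adjusted p = 0.00124). The Thra counts do not separate mutant from normal transcripts, and Thra overlaps Nr1d1 on the other strand, while no source used here says whether counting used strand. In WT, Thrb rose by 3.76 and Thra changed by -0.54, and neither difference passed (adjusted p = 0.334 and 0.762). Of 22 tested genes of receptors, transporters and cofactors 2 rose and 11 fell, or 4 rose with the outside-gene share of reads as a covariate. Those that fell included the transporter genes Slc16a10 (-1.34), Slco2b1 (-1.29) and Slc7a8 (-0.77). Slc7a5, an amino acid transporter that also carries T3, was the other gene that rose (1.94).

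Of 14 tested genes known to respond to T3 in other tissues, 8 rose with IL-4 (57.1%) and 4 fell (28.6%). Over all genes tested the shares were 28.3% and 29.4%. Klf9, a Krüppel-like factor gene, had 14.6, 17.3, 14.1, 13.8 and 11.5 CPM in TRα1PV M2, against 1.33, 0.812, 0.930, 1.19 and 1.19 CPM in TRα1PV M0 (3.70 ± 0.15, adjusted p = 5.69e-19). In WT it averaged 70.4 ± 8.30 CPM in WT M2 and 15.4 ± 1.35 CPM in WT M0 (SD, n = 5 each), at a change of 2.196 ± 0.12. Its levels were lower in TRα1PV in both states, and the change was larger there, by 1.51 ± 0.19 (adjusted p = 4.86e-05). Fasn, fatty acid synthase, rose by 2.02 ± 0.11 in TRα1PV and 1.30 ± 0.11 in WT (difference 0.72 ± 0.15, adjusted p = 0.00602), and Atp2a2, a calcium pump gene, by 1.10 and 0.81 (difference 0.29, a call lost without TRα1PV M2 replicate 2 or WT M0 replicate 4). The corepressor gene Hr, at 0.729 ± 0.453 CPM in TRα1PV M2 and 0.0399 ± 0.0167 CPM in TRα1PV M0, rose by 4.19, and the desaturase gene Scd1, also low, by 6.27. Slc2a4 had 55 reads over TRα1PV M2 and none over TRα1PV M0 and was not tested.

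Most genes called in TRα1PV were called in the same direction in WT. Of the 4442 genes that rose in TRα1PV, 3511 also rose in WT (79.0% of those and 88.9% of the WT genes that rose). Of the 4604 that fell, 3652 also fell in WT (79.3% and 85.6%). In opposite directions, 2 genes rose in TRα1PV and fell in WT, and 21 fell in TRα1PV and rose in WT. Tpst1, a tyrosine sulfotransferase gene, was among these (-0.52 ± 0.08 in TRα1PV, 0.37 ± 0.08 in WT, adjusted p of the difference = 9.81e-05), as were Parp9 (-0.43 and 0.32), Prr5l (-0.69 and 0.75) and Olfr56 (-0.93 and 0.63).

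Beside Ifi47, Mx1, Irgm1, Xaf1, Tpst1 and Klf9, the 10 smallest p values for the difference belonged to Tagap, Parp12, Rnase6 and Cald1. Tagap, a GTPase-activating protein gene, averaged 4.80 and 29.1 CPM in TRα1PV M2 and M0, and 8.40 and 18.6 CPM in WT M2 and M0 (difference -1.45 ± 0.20). Cald1, which encodes caldesmon, rose more in TRα1PV, to 27.9 CPM in TRα1PV M2 against 1.31 CPM in TRα1PV M0, where WT had 16.7 and 3.24 CPM (difference 2.04 ± 0.30). Parp12 differed by -0.81, and the ribonuclease gene Rnase6 by -1.25. Of the genes leading the IL-4 response, Tmem26 (1.11) and Fn1 (1.29) rose more in TRα1PV and St8sia1 (-1.87) less. Cish (0.97), Irs2 (0.43), Kdm6b (0.61), Fabp4 (1.05) and Fabp5 (0.78) also rose more in TRα1PV, and Batf3 (-1.02), Mgl2 (-0.75) and Clec10a (-0.60) less. The differences of Fn1, Irs2, Mgl2, Clec10a, Tmem26, Cish and Batf3 lost their call on leaving out at least 1 library, that of St8sia1 by limma-voom (adjusted p = 0.0699), and that of Tmem26 also with the replicate block within genotype (adjusted p = 0.0504). The differences of Arg1 (1.42 ± 0.57) and Retnla (1.06 ± 0.38) did not pass (adjusted p = 0.265 and 0.186).

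**Figure D5:**
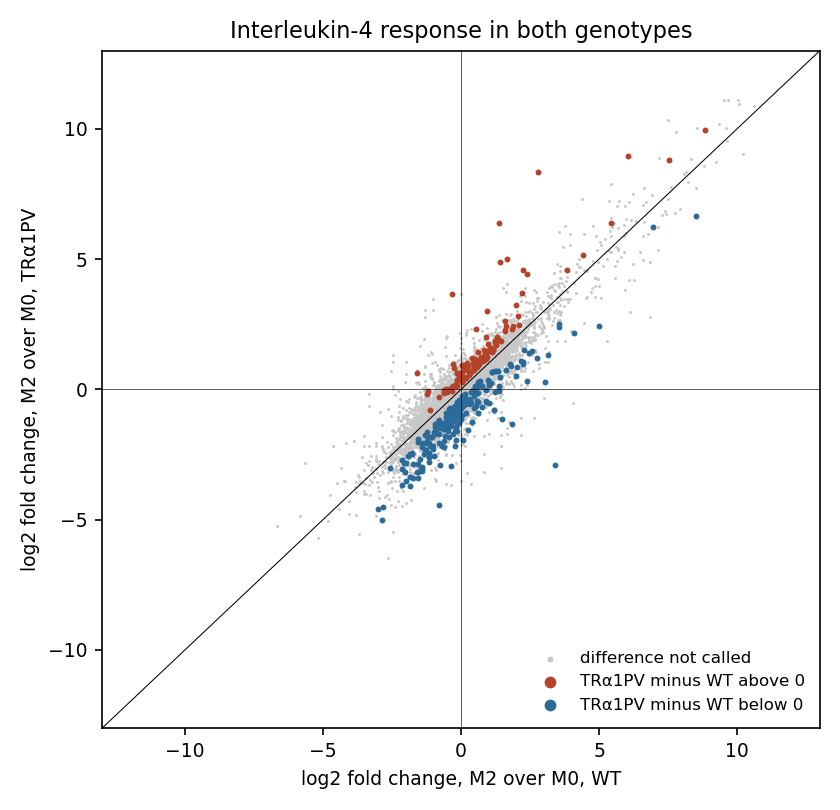
Log2 fold change, M2 over M0, of the 15686 genes, with TRα1PV on the y axis and WT on the x axis; the 110 and 229 genes whose difference passed the test above and below 0 are coloured. Most genes follow the diagonal, and Mx1 and Irgm1 lie below it.

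Markers of other cells were summed to see what moved with the response. Endothelial markers came to 505 to 611 CPM in TRα1PV M2 and 74.3 to 87.3 CPM in TRα1PV M0, with 2 of 4 tested genes higher and 2 lower. Most of the sum was Vwf, at 521 ± 40.9 CPM in TRα1PV M2 and 62.2 ± 4.39 CPM in TRα1PV M0, while Emcn had no read. Inflammatory monocyte markers came to 1745 to 2800.0 CPM in TRα1PV M2 and 1105 to 1403 CPM in TRα1PV M0, of which 1 of 9 tested genes rose (Chil3) and 6 fell. Neutrophil markers came to 271 to 387 CPM in TRα1PV M2 and 283 to 479.8 CPM in TRα1PV M0, with 3 of 12 tested genes higher and 5 lower, or 9 lower with the replicate number as a block. Dendritic cell markers came to 67.9 to 81.1 CPM in TRα1PV M2 and 77.0 to 110.0 CPM in TRα1PV M0, with 2 of 12 higher and 5 lower, or 3 lower without TRα1PV M2 replicate 5. Fibroblast markers came to 1.27 to 2.72 CPM in TRα1PV M2 and 1.80 to 3.30 CPM in TRα1PV M0, and only Acta2 of 8 tested genes was called. The defining marker Ncr1 of natural killer cells and the hemoglobin genes had no read. Smaller lists were lower in TRα1PV M2 without overlap. T and natural killer cell markers came to 1.91 to 2.74 CPM in TRα1PV M2 and 11.3 to 16.4 CPM in TRα1PV M0, B cell markers to 5.23 to 7.86 CPM in TRα1PV M2 and 12.1 to 16.9 CPM in TRα1PV M0 and eosinophil markers to 1.21 to 2.21 CPM in TRα1PV M2 and 4.04 to 5.71 CPM in TRα1PV M0. Mast cell and basophil markers came to 0.346 to 1.25 CPM in TRα1PV M2 and 1.61 to 3.65 CPM in TRα1PV M0, and erythroid and megakaryocyte markers, mostly Pf4, to 85.0 to 118 CPM in TRα1PV M2 and 215 to 369 CPM in TRα1PV M0. Every tested member of the T and natural killer cell (1), B cell (2), mast cell (2) and erythroid and megakaryocyte (2) lists fell, as did 1 of 3 eosinophil genes. In bulk RNA, fewer cells of a type and less RNA per cell cannot be told apart, and the part of these markers in the results was not tested.

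Stress and early response genes moved as well. Of 15 immediate-early and heat-shock genes 8 rose (53.3%) and 4 fell (26.7%), where 28.3% of all genes tested rose and 29.4% fell. Ier3 (1.11) and Egr1 (0.94) were higher and Fos (-1.50) and Dusp1 (-1.08) lower in TRα1PV M2.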

How the data were processed

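RNA of bone marrow-derived macrophages was sequenced after poly(A) mRNA library preparation (KAPA), per the labels' protocols. The authors deposited raw read counts per gene, 1 file per library, with 5 rows of totals after the genes that were left out of library sizes and tests. Those rows held 23.3 to 26.4% of reads in TRα1PV M2 and 24.3 to 28.1% in TRα1PV M0. The submitters' processing notes name GRCm39, Trimmomatic 0.39, HISAT2 2.2.1 and HTSeq 1.99.2. The sources used here do not give the annotation release or the strand setting. Of 55414 gene IDs 52081 matched a symbol.

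Counts of all 30 libraries were fitted in edgeR 4.0.16 (R 4.3.3) by group, with TMM scaling, a minimum count of 10 (filterByExpr) and the quasi-likelihood test, and p-values were adjusted over 15686 genes. Contrasts were M2 against M0 in TRα1PV and in WT, and the difference of these contrasts. CPM values carry TMM scaling, and the SE is the size of the change over the root of F. Precision rests on 5 libraries a group; count intervals and the floor of 3 reads cover counting error only. The code was tested on simulated data. Alternatives were median-of-ratios scaling, DESeq2 1.42.0, limma-voom (limma 3.58.1), no filter, the compared groups only, replicate blocks, leaving out each library and, chosen after seeing the data, the outside-gene share of reads as a covariate.

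The labels give the replicate number under the tag batch, so libraries with 1 number share a batch; whether that is a mouse or a day is not stated. Deviations of same-numbered TRα1PV M2 and M0 libraries correlated at -0.0427 to 0.331 (mean 0.184, other numbers -0.0459), and 4 of 5 matched their own number best. No 2 of these libraries differed by as little as sampling noise (a chi-square of 8.1 to 60.8 per degree of freedom).

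The 39 gene lists and the members named were chosen with earlier results of these data known, so no p-value over a list is given. Named were the 15 largest increases and decreases, where log2 CPM averaged 1 or more, with 1 sign in all 5 pairs, all members of the 5 core lists of alternative activation, up to 3 called members a direction of every other list by smallest p, the 10 smallest p for the difference, up to 6 genes called in opposite directions, and both thyroid hormone receptor genes. Adgre1, Alox15, Amd1, Bst2, Ccl12, Ccr1, Ciita, Csf1r, Cxcl2, Dcstamp, Emcn, H2-Aa, H2-Ab1, H2-Eb1, Hr, Idi1, Il1b, Insig1, Ncr1, Ndufa2, Nos2, Nr1h3, Ocstamp, Odc1, Pilrb1, Pmvk, Scd1, Slc2a4, Srebf2, Srm, Stat2, Tgtp1, Tgtp2, Tlr4, Tnf and Zbp1 were named after their values were seen. Some genes that these rules name are counted in their lists but not reported here by name.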

Additional observations from a re-analysis of the deposited data

Results flagged for a closer look

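In 4 of the genes whose levels are given, 1 library lay far from the other 4 of its group. These were Cx3cr1 in TRα1PV M0 replicate 4, the lowest at 3.36 CPM, and Klf4 in TRα1PV M0 replicate 5, the lowest at 3.74 CPM. Il4ra in TRα1PV M2 replicate 5 was the highest at 169 CPM, as was Itgax in TRα1PV M2 replicate 1 at 245 CPM.

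Among library measures, each compared within its group only, TRα1PV M0 replicate 5 had the lowest share of reads not aligned, 4.22%. Within the WT M2 group, replicate 4 had the highest share of reads outside genes, at 9.06% of all reads. Its shares of 10.999% of the reads in and outside genes and of 26.7% in no gene were also that group's highest. WT M0 replicate 2 had the lowest share of reads of low alignment quality, 1.12%. Chance flags about 1 in 20 such groups if they are independent, and here 9 of 136 were flagged (6.62%). The groups are not independent, since the flagged shares of WT M2 replicate 4 count the same reads outside genes. No conclusion is drawn from the comparison of these rates.

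The response to IL-4 differed between genotypes, by edgeR's quasi-likelihood test of the interaction, for 49 of the 245 genes named. Over all genes tested it differed for 339 of 15686 (2.16%). Some of the 245 were named for that difference or after their values were seen, so their share does not carry over to all genes. The differences are log2 fold changes in TRα1PV minus WT. They were above 0 in Cald1 (2.04), Klf9 (1.51), Fn1 (1.29), Tmem26 (1.11), Fabp4 (1.05), Cish (0.97), Egr1 (0.92), Fabp5 (0.78), Fasn (0.72), Kdm6b (0.61), Irs2 (0.43), Cd68 (0.40), Etfdh (0.32) and Atp2a2 (0.29). They were below 0 in Ifit1bl1 (-2.14), St8sia1 (-1.87), Mx1 (-1.86), Tgtp1 (-1.83), Tgtp2 (-1.78), Cxcl10 (-1.68), Ccr2 (-1.63), Ifit3 (-1.59), Tnfsf10 (-1.59), Iigp1 (-1.58), Olfr56 (-1.56), Rsad2 (-1.55), Tagap (-1.45), Prr5l (-1.44), Ifi47 (-1.40), Zbp1 (-1.37), Rnase6 (-1.25), Ccr1 (-1.23), Xaf1 (-1.23), Gbp5 (-1.17), Irgm1 (-1.12), Gbp2 (-1.09), Batf3 (-1.02), Oas2 (-0.93), Tpst1 (-0.89), Parp12 (-0.81), Itgam (-0.77), Mgl2 (-0.75), Parp9 (-0.75), Smox (-0.73), Nfkbiz (-0.73), Stat2 (-0.73), Fcgr1 (-0.63), Clec10a (-0.60) and Cxcl16 (-0.44).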

How the results depend on the processing

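The counts of genes changed by IL-4 stayed within 1.5 times in each setting run. Leaving out 1 library gave 4227 to 4450 higher and 4309 to 4421 lower genes in TRα1PV. The genes whose response differed between genotypes depended more on the setting. The 110 with a difference above 0 became 214 by DESeq2, 66 with no filter on low counts, 214 with the outside-gene share of reads as a covariate, and 70 to 205 on leaving out 1 library. Those that moved the count by over 1.5 times were TRα1PV M2 replicate 2 (73), TRα1PV M0 replicate 1 (72), TRα1PV M0 replicate 3 (70) and WT M0 replicate 2 (205). The 229 below 0 became 364 with the covariate and 179 to 306 on leaving out 1 library. Without WT M0 replicate 2, the difference was below 0 for 27 type I interferon-stimulated genes.

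Mtor reversed with the covariate (-0.036, adjusted p = 0.692), where the main value was 0.19. Acsl1, Adgre1, Ccl12, Cebpb, Folr2, Hspa8, Il1rn, Lilr4b, Mtor, Olfr56, Ptpn1 and Ptpn6 lost their call in at least 1 setting, and Akt1, Bst2, Ccr1, Cd163, Csf1r, H2-Aa, H2-Ab1, Ndufa2, Stat6, Trem2 and Tyk2 gained one. Of 49 genes named whose response differed between genotypes, 32 kept that call in all settings; Oas2 and Tgtp1 lost it in 17 settings each, Irs2 in 15, Clec10a in 14 and Fn1 in 12. The cause was not tested. With the covariate, 4 arginine genes, 1 tricarboxylic acid cycle gene and 8 lysosomal genes fell, and 4 thyroid hormone receptor, transporter and cofactor genes rose. Without TRα1PV M2 replicate 5, 3 dendritic cell markers fell.

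The replicate block gave 4500 higher and 4684 lower genes in TRα1PV over all libraries and ended the call of Mtor (adjusted p = 0.0512, or 0.0676 within genotype), while Ndufa2 gained one. It moved the neutrophil markers that fell from 5 to 9 and, within genotype, the paired receptors that rose from 3 to 5, and the differences of Cd68 and Tmem26 lost their call (adjusted p = 0.0536 and 0.0504). Differences that gained one were those of Ccl6 (adjusted p = 0.00352 over all libraries), Chil3 (0.0077), H2-DMa (0.0408) and Trim30b (0.0481) and, within genotype, of Ccl6, Chil3, Trim30b, Apol7c, F13a1, Fcgr2b and Ms4a4c. With the 10 TRα1PV libraries alone and the block, Akt1, Bst2, Ccr1, Cd163, H2-Aa, H2-Ab1 and Ndufa2 were called, 4 chemoattractant receptors, 6 paired receptors and 2 monocyte markers rose, and no MHC class II gene fell. At this depth, Ccl17, Chil4, Alox15 and Slc2a4 rested on under 10 reads in TRα1PV M0.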
